A study of Mus musculus with 12 samples.

Results

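The NR4A nuclear receptors are 3 genes, Nr4a1, Nr4a2 and Nr4a3, which were taken by symbol from the 55401 gene identifiers of the deposited tables. All 3 members were matched and all 3 passed the filter on low counts, among 16426 genes tested. They encode the orphan receptors NUR77, NURR1 and NOR1. In T cells these are early genes of antigen receptor signalling, reached through calcium, NFAT, MEF2 and CREB-family factors. The proteins bind the NBRE element as monomers. Their activity was not measured here, and transcript levels do not give it. NUR77 and NURR1 can also pair with retinoid X receptors. In mouse tumour-infiltrating CD8 T cells the family is known for its link to exhaustion, the state of T cells under persistent antigen.

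Bulk RNA was sequenced in 12 libraries of OT-I cells, mouse CD8 T cells whose transgenic receptor recognises an ovalbumin peptide. Day 14 and day 4 libraries (3 each) held CD44+ OT-I cells sorted from B78ChOVA melanomas of C57BL/6J hosts, 14 or 4 days after transfer; the labels call both exhausted. Effector libraries (3) came from OT-I cells stimulated with antigen in culture for 5 days, and naive libraries (3) from the lymph nodes of tumour-free OT-I mice, labelled day 0. The contrasts ask how transcript levels differ among these states. All groups carry the OT-I receptor. The hosts keep their own T cells, and no source used here gives the age or sex of the mice. The labels do not say whether libraries of a group came from separate animals or cultures, so p-values measure the spread between these libraries, which may be technical.

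Gene counts per library ranged from 11937053 to 17094006. The labelled cell type was checked on 8 CD8 T cell markers (Cd3d, Cd3e, Cd3g, Cd8a, Cd8b1, Trac, Cd247 and Lck). Each was detected in every group, and their summed level was 3730.5 to 3918 CPM (counts scaled to a shared library total) in day 14, 2742 to 3281 CPM in day 4, 5111 to 5433 CPM in effector and 4177 to 4636 CPM in naive libraries. Cd4 stayed at or under 4.63 CPM in every library. It rose against naive cells at day 14 (log2 fold change of 3.19 ± 0.71, edgeR adjusted p = 0.00091) and at day 4 (2.79). Markers of CD4 and regulatory T cells (6 genes) had a mean sum of 15.5 CPM for naive and 471 for effector cells. That sum was 732 at day 4 and 1254 at day 14. Ctla4 alone averaged 296 CPM in effector cells, 440 at day 4 and 1026 at day 14, and Il2ra 161, 282 and 212. Against naive cells 4 of the 6 rose in each other group, and 1 fell at each tumour time. Of all genes, 33.6% were called higher and 28.5% lower at day 14, and 33.4% and 28.8% at day 4. In effector cells 14.6% of all genes were called higher. The part of host T cells in these marker levels was not tested. Library totals behind the CPM were adjusted with TMM factors. Levels carry the SD over 3 libraries, and log2 fold changes the SE of the fit.

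The members lie on different chromosomes of the mouse genome (GRCm38). Nr4a1 (ENSMUSG00000023034.7) spans chr15:101254269-101274795 on the plus strand, Nr4a2 (ENSMUSG00000026826.13) chr2:57106830-57124003 on the minus strand and Nr4a3 (ENSMUSG00000028341.9) chr4:48045153-48086447 on the plus strand. No other annotated gene overlaps them in GENCODE M21, which matters because the counts do not use strand.

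The proximal promoters are shown because the letters TGACG, the core of the cAMP response element bound by CREB-family factors, recur in all 3. Capitals mark each match on either strand (CGTCA is the same letters read from the other strand), and sequences are from RefSeq (GRCm38), upstream of the annotated exons. Nr4a1 is shown for chr15:101266596-101266845 (plus strand, within an intron of the longer annotated Nr4a1 transcript), Nr4a2 for chr2:57124004-57124253 (minus strand, no gene annotated there) and Nr4a3 for chr4:48045055-48045152 (plus strand, no gene annotated there).
Nr4a1: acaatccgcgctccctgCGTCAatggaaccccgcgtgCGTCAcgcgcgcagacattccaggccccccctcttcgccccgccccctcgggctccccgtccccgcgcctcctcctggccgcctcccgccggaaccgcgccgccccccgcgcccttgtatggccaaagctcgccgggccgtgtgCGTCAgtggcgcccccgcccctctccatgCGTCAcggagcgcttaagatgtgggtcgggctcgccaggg
Nr4a2: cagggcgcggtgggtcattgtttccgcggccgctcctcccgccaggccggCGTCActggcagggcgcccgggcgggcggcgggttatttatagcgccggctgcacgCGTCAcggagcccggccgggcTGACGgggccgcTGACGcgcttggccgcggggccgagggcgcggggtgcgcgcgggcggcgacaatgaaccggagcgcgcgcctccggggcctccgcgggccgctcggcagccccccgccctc
Nr4a3: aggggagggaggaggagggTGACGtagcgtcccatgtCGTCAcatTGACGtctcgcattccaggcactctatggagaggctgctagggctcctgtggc

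In the Nr4a1 window TGACG matches began at -233, -213, -69 and -40 relative to the RefSeq start, all on the reverse strand. In the Nr4a2 window they began at -200, -144, -123 and -111. In the shorter Nr4a3 window they began at -231, -213 and -205. At least 1 match was present in 17.8% of 32851 mouse promoter windows of 250 bases, and at least 4 in 0.137%. Of the windows cut to 98 bases like that of Nr4a3, 0.0274% held at least 3. G and C made up 74.4% of the Nr4a1 window, 80.0% of the Nr4a2 window and 61.2% of the Nr4a3 window. The mouse promoter windows were not matched for this content, so the percentages do not account for it. The full element TGACGTCA, found in 1.55% of the 250-base windows, had no match in any of the 3, nor had the NBRE letters AAAGGTCA, found in 1.34%. The MEF2 letters TATTTATA (1.56% of windows) began at -166 in the Nr4a2 window, and the NFAT core GGAAA (55.6% of windows) had 1 match there, on the reverse strand at -230. A match is a description of the sequence and says nothing of binding in these cells.

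All 3 receptors were high in both tumour groups and low in effector and naive cells. Nr4a2 had 1959, 2253 and 2082 CPM in the day 14 libraries, 2620.0, 2518 and 2369 CPM in the day 4 libraries, 6.40, 5.51 and 12.9 CPM in the effector libraries and 4.06, 5.34 and 4.67 CPM in the naive libraries. The 6 tumour libraries lay far above the other 6 with no overlap, for this and both other members, and effector replicate 3 stood above the other effector libraries. By mean CPM Nr4a2 ranked 23 in day 14 and 19 in day 4 libraries among the 16426 genes. CPM are not scaled by gene length, so these ranks describe read counts.

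Nr4a3 had 1186, 1031 and 1251 CPM in the day 14 libraries, 1988, 1599 and 1808 CPM in the day 4 libraries, 11.4, 10.6 and 19.8 CPM in the effector libraries and 10.8, 9.88 and 16.8 CPM in the naive libraries. Effector and naive values overlapped, and the day 14 values were below the day 4 values in every library. Its mean CPM ranked 59 in day 14 and 32 in day 4 libraries.

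Nr4a1 was the member with the fewest reads in tumour cells. It had 114, 152 and 154 CPM in the day 14 libraries, 156, 122 and 147 CPM in the day 4 libraries, 1.65, 1.55 and 2.48 CPM in the effector libraries and 5.10, 7.41 and 11.3 CPM in the naive libraries. Day 14 and day 4 values overlapped, while effector values lay below all naive values. The effector values rest on 23, 18 and 32 counts and the naive values on 69, 93 and 148 counts. Its mean CPM ranked 1569 in day 14 and 1490 in day 4 libraries.

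**Figure D1:**
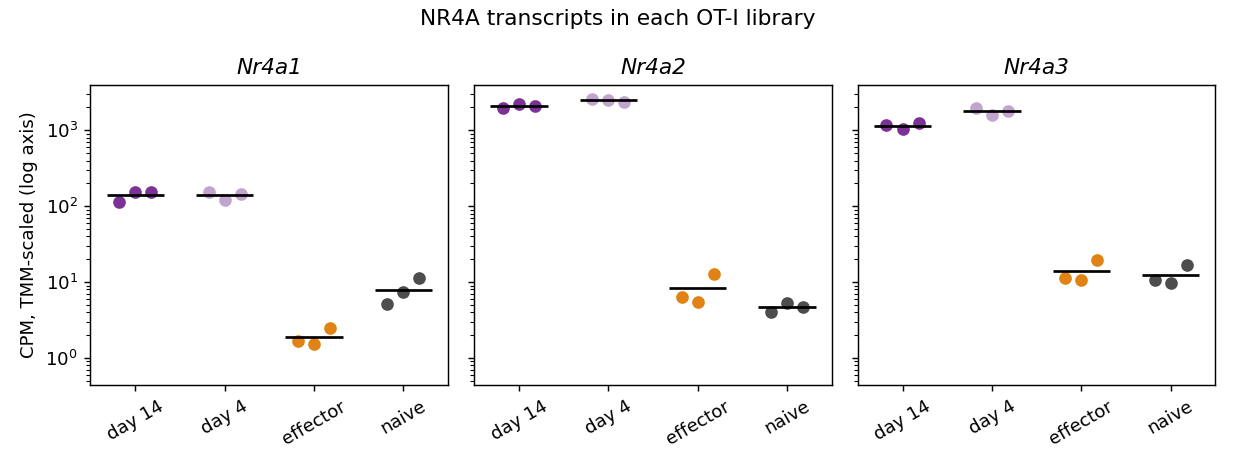
Level of Nr4a1, Nr4a2 and Nr4a3 in each of the 12 libraries, in CPM on a log axis, with points for libraries and bars for group means (n = 3). The 6 tumour libraries sit between 114 and 2620 CPM and the effector and naive libraries between 1.55 and 19.8 CPM.

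Across the 4 groups each member differed (edgeR quasi-likelihood F of 576.6 for Nr4a2, 372.8 for Nr4a3 and 245.8 for Nr4a1, Benjamini-Hochberg adjusted p of 1.81e-10, 1.92e-09 and 1.10e-09), as did 74.8% of all genes tested. In bulk libraries, a difference in the number of expressing cells and a difference in RNA per cell cannot be told apart.

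Tumour cells were set against naive cells to ask how far the receptors stood from the resting state. All 3 members rose at day 14, where 33.6% of all genes tested were called higher, 28.5% lower and 62.1% in either direction. All 3 also rose at day 4, where 33.4% were called higher, 28.8% lower and 62.2% in either direction. CPM of the 2 groups did not overlap for any member, as for 68.5% of genes at day 14 and 68.4% at day 4. At day 14, Nr4a2 averaged 2098 ± 148 CPM against 4.69 ± 0.636 CPM in naive cells, a 447-fold difference (log2 fold change of 8.81 ± 0.30, edgeR adjusted p = 7.44e-10). Nr4a3 averaged 1156 ± 113 CPM at day 14 against 12.5 ± 3.74 CPM in naive cells, 92.6-fold higher (log2 fold change of 6.53 ± 0.29, edgeR adjusted p = 1.07e-08). Nr4a1 averaged 139.9 ± 22.7 CPM at day 14 against 7.94 ± 3.15 CPM in naive cells, 17.6-fold higher (log2 fold change of 4.14 ± 0.25, edgeR adjusted p = 2.24e-08). Ordered by log2 fold change over all genes from the highest, Nr4a2 was at place 130, Nr4a3 at 622 and Nr4a1 at 1348.

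At day 4 the order of the members was the same. Nr4a2 averaged 2502 ± 126 CPM at day 4, 534-fold above naive cells (log2 fold change of 9.06 ± 0.30, edgeR adjusted p = 6.27e-10), place 94 of 16426. Nr4a3 averaged 1798 ± 195 CPM, 144-fold above naive cells (log2 fold change of 7.17 ± 0.29, edgeR adjusted p = 6.06e-09), place 454. Nr4a1 averaged 142 ± 17.4 CPM, 17.8-fold above naive cells (log2 fold change of 4.16 ± 0.25, edgeR adjusted p = 2.10e-08), place 1341. Both time points share the naive libraries, so the values of the 2 contrasts are not independent.

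Effector cells had been stimulated with antigen in culture for 5 days, so the contrast sets tumour cells against cultured, antigen-stimulated cells. Growth in culture rather than in a tumour, and sorting from tumours, also differ in this contrast. Their parts were not tested. All 3 members were higher at day 14 than in effector cells, where 32.6% of genes were called higher, 28.4% lower and 61.0% in either direction. All 3 were also higher at day 4, where 32.7% were called higher, 29.2% lower and 61.9% in either direction. No member's CPM overlapped, as for 66.5% of genes at day 14 and 67.6% at day 4. Nr4a2 was 253-fold higher at day 14 (log2 fold change of 7.98 ± 0.28, edgeR adjusted p = 1.19e-09) and 301-fold higher at day 4 (log2 fold change of 8.24 ± 0.28, edgeR adjusted p = 8.76e-10) than in effector cells, which averaged 8.27 ± 4.05 CPM. Nr4a3 was 82.9-fold higher at day 14 (log2 fold change of 6.37 ± 0.28, edgeR adjusted p = 1.25e-08) and 129-fold higher at day 4 (log2 fold change of 7.01 ± 0.29, edgeR adjusted p = 6.38e-09), against 13.9 ± 5.12 CPM in effector cells. Nr4a1 was 73.5-fold higher at day 14 (log2 fold change of 6.20 ± 0.29, edgeR adjusted p = 2.70e-09) and 74.3-fold higher at day 4 (log2 fold change of 6.22 ± 0.29, edgeR adjusted p = 2.30e-09), against 1.89 ± 0.508 CPM in effector cells. The fold changes of the members lay closer to each other here than against naive cells, with Nr4a1 lower and Nr4a2 higher in effector than in naive cells by mean CPM.

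Effector and naive cells themselves differed in 1 member. Of the 3, Nr4a1 fell in effector cells and none rose, where 10.4% of genes were called lower, 14.6% higher and 24.9% in either direction. Nr4a1 was 4.17-fold lower in effector than in naive cells (log2 fold change of -2.06 ± 0.31, edgeR adjusted p = 0.000456), place 602 from the lowest. Nr4a2 had a log2 fold change of 0.82 (SE 0.28, edgeR adjusted p = 0.0509) and did not pass the threshold, although its CPM did not overlap between the groups (a pattern 40.2% of genes showed). That call depends on single libraries: it was 0.32 without effector replicate 3, and passed the threshold without effector replicate 2 (log2 fold change 1.04, edgeR adjusted p = 0.00805) or replicate 1 (0.95, edgeR adjusted p = 0.0362) and in DESeq2 (0.80, adjusted p = 0.0380). Nr4a3 had a log2 fold change of 0.16 (SE 0.26, edgeR adjusted p = 0.711), and -0.22 without effector replicate 3.

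Between the tumour time points no member passed the threshold, while 12.1% of all genes did (7.17% higher, 4.91% lower). Without adjustment, Nr4a3 alone had p under 0.05, and DESeq2 called no member. The log2 fold change of day 14 over day 4 was -0.64 for Nr4a3 (SE 0.22, edgeR adjusted p = 0.0942), -0.25 for Nr4a2 (SE 0.20, edgeR adjusted p = 0.512) and -0.02 for Nr4a1 (SE 0.21, edgeR adjusted p = 0.982). The CPM of Nr4a3 and of Nr4a2 did not overlap between day 14 and day 4, a pattern that 30.5% of all genes showed. For Nr4a3 the adjusted p ranged from 0.00173, in a fit of these 2 groups alone, to 0.255 over the settings tried, with a log2 fold change between -0.73 and -0.57 when single libraries were left out.

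**Figure D2:**
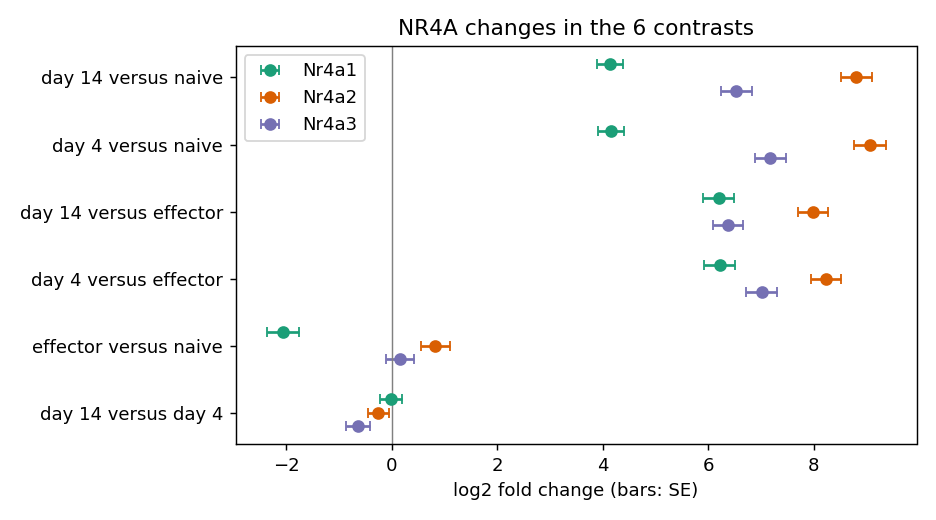
log2 fold changes of the 3 members in the 6 contrasts, with SE bars from the edgeR fit of all 12 libraries. The tumour contrasts against naive and effector cells lie between 4.14 and 9.06, effector against naive between -2.06 and 0.82, and day 14 against day 4 between -0.64 and -0.02.

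Scaled by gene length, the members can be set side by side. In CPM per kilobase of exon, Nr4a2 averaged 517 ± 36.3 at day 14 and 616 ± 31.1 at day 4, Nr4a3 193 ± 18.9 and 300.4 ± 32.6, and Nr4a1 39.9 ± 6.46 and 40.4 ± 4.95. In effector cells the order on this scale was Nr4a3 (2.32 ± 0.854), Nr4a2 (2.04 ± 0.997) and Nr4a1 (0.539 ± 0.145). In naive cells it was Nr4a1 (2.26 ± 0.898), Nr4a3 (2.08 ± 0.625) and Nr4a2 (1.16 ± 0.157). Within naive libraries the log2 ratio of Nr4a3 to Nr4a1 took both signs (0.31, -0.36 and -0.21), so their order was not fixed. Within effector libraries the log2 ratio of Nr4a3 to Nr4a2 was above 0 in each (0.26, 0.38 and 0.05).

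The make-up of the family differed by state. Nr4a2 held 68.9 ± 2.72% of the length-scaled family level at day 14 and 64.4 ± 2.44% at day 4, against 40.7 ± 3.17% in effector and 21.8 ± 5.16% in naive cells. Nr4a1 held 5.30 ± 0.654% at day 14, 4.21 ± 0.382% at day 4, 11.4 ± 1.38% in effector and 40.2 ± 5.54% in naive cells. Nr4a3 held 25.8 ± 3.003% at day 14, 31.3 ± 2.06% at day 4, 47.9 ± 1.81% in effector and 37.9 ± 5.00% in naive cells.

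These shares were tested through log2 ratios of members within a library, which do not depend on library scaling. The Nr4a2 to Nr4a1 ratio per kilobase averaged 3.71 ± 0.17 at day 14, 3.94 ± 0.19 at day 4, 1.82 ± 0.30 in effector and -0.90 ± 0.51 in naive cells on the log2 scale. It differed across the groups (F = 145, exact permutation test over 369600 assignments, p = 0.0001948, adjusted p = 0.0002597). The Nr4a3 to Nr4a1 ratio averaged 2.28 ± 0.31 at day 14, 2.90 ± 0.04 at day 4, 2.05 ± 0.14 in effector and -0.09 ± 0.35 in naive cells (F = 84.8, exact permutation p = 0.0001299, adjusted p = 0.0002597). The Nr4a3 to Nr4a2 ratio averaged -1.42 ± 0.23 at day 14, -1.04 ± 0.15 at day 4, 0.23 ± 0.16 in effector and 0.81 ± 0.48 in naive cells (F = 40.3, exact permutation p = 0.0002597, adjusted p = 0.0002597). Adjustment was over the 3 ratios, and the smallest p this design allows is 6.494e-05. The Nr4a3 to Nr4a2 ratio was below 0 in all 6 tumour libraries and above 0 in the other 6.

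**Figure D3:**
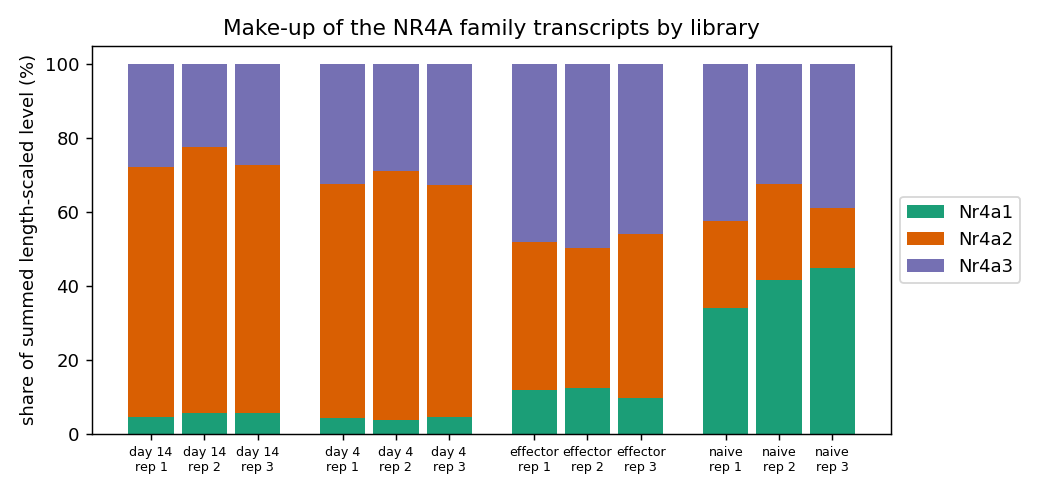
Share of each member in the summed length-scaled NR4A level (%), 1 bar for each library. Nr4a2 takes 64.4% to 68.9% on average in the tumour groups, and Nr4a1 takes 40.2% on average in naive cells.

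Summed over the family, the length-scaled level was 713, 771 and 766 CPM per kilobase in the day 14 libraries, 1022, 922 and 927 in the day 4 libraries, 3.94, 3.56 and 7.196 in the effector libraries and 4.26, 5.08 and 7.18 in the naive libraries. Day 14 values lay below all day 4 values, and effector and naive values overlapped. The 3 genes took 0.326% to 0.347% of all gene counts in day 14 libraries and 0.425% to 0.477% in day 4 libraries.

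Set among all 49 nuclear receptor genes looked up, the NR4A family was the leading part of the class in tumour cells and a minor one elsewhere. It held 86.9 ± 1.01% of the summed length-scaled level at day 14 and 93.1 ± 0.658% at day 4, against 4.79 ± 1.94% in effector and 5.47 ± 1.56% in naive cells. The other 46 receptors summed to 113 ± 8.52 CPM per kilobase at day 14, 70.8 ± 3.41 at day 4, 97.2 ± 1.89 in effector and 95.3 ± 3.71 in naive cells. Nr4a2 and Nr4a3 held ranks 1 and 2 at both time points, and Nr4a1 held rank 4 at day 14 and 3 at day 4. The glucocorticoid receptor Nr3c1 held rank 1 in effector and naive cells, where Nr4a1 was at rank 19 in effector and 12 in naive cells.

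Of the other 46 receptors, 22 were tested. At day 14, 4 rose and 11 fell against naive cells (median log2 fold change -0.59, against 0.04 for all genes), and at day 4, 3 rose and 11 fell (median -0.79, against 0.03). The risers were Rora, Nr2f2, Rxra and Nr3c1 at day 14, and Rora, Nr2f2 and Vdr at day 4. Rora, which encodes a receptor of the ROR group, was the most abundant of them. It had 492, 474 and 678 CPM in day 14, 201, 249.5 and 222 CPM in day 4, 60.2, 78.4 and 61.9 CPM in effector and 26.8, 17.8 and 23.1 CPM in naive libraries. Its 4 groups did not overlap, and it rose against naive cells at day 14 (log2 fold change of 4.60 ± 0.19, edgeR adjusted p = 2.69e-10), at day 4 (3.31, SE 0.18, edgeR adjusted p = 3.62e-09) and in effector cells (1.56, SE 0.17, edgeR adjusted p = 3.16e-05). It was also higher at day 14 than at day 4 (log2 fold change of 1.29 ± 0.16, edgeR adjusted p = 0.000199), as was Nr3c1 (0.82, SE 0.09, edgeR adjusted p = 3.08e-05). Among receptors that fell, Nr1d2, a circadian repressor, had a log2 fold change of -1.54 at day 14 and -1.65 at day 4. The retinoic acid receptor gene Rara had -1.33 at day 14, and Rarg -2.03 at day 4. In effector against naive cells 3 of the 22 fell, Rxra (-1.04), Rarg (-0.88) and Rara (-0.73).

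**Figure D4:**
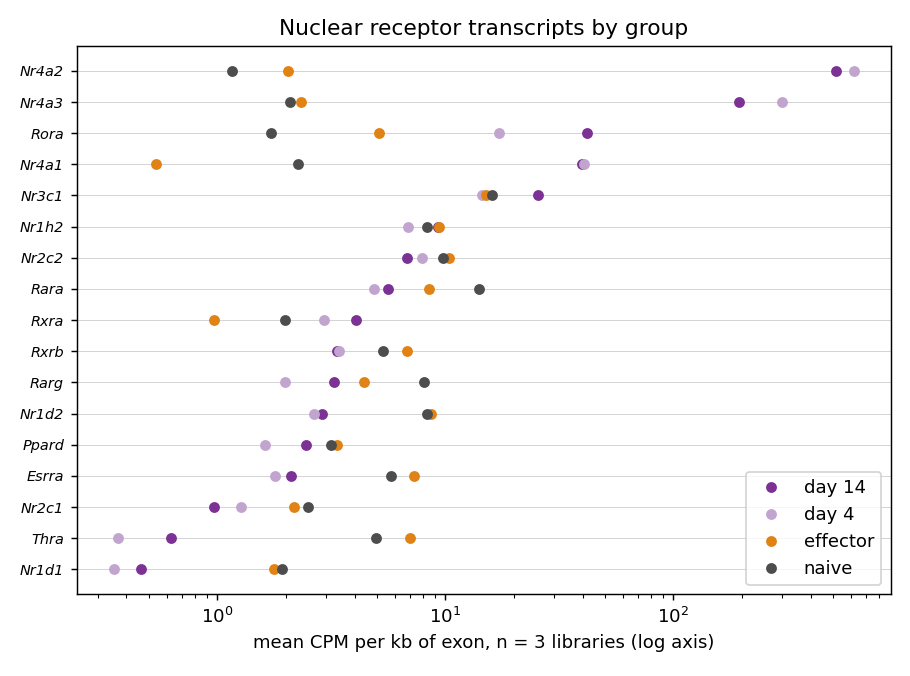
Mean length-scaled level (CPM per kilobase of exon, log axis, n = 3 libraries a group) of several of the more abundant nuclear receptor genes in the 4 groups. Nr4a2 and Nr4a3 stand above all other receptors in tumour cells, and Nr4a1 is near 40 there, at 39.9 in day 14 and 40.4 in day 4 cells.

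The retinoid X receptors are partners of NUR77 and NURR1. Rxra had 26.1, 21.6 and 19.1 CPM in day 14, 13.3, 16.7 and 17.97 CPM in day 4, 6.11, 7.05 and 2.63 CPM in effector and 10.7, 12.6 and 9.03 CPM in naive libraries. Rxra rose at day 14 against naive cells (log2 fold change of 1.05 ± 0.26, edgeR adjusted p = 0.00243), had 0.57 at day 4 (SE 0.26, edgeR adjusted p = 0.0695) and fell in effector cells (-1.04, SE 0.28, edgeR adjusted p = 0.0123). The last call was lost without naive replicate 2 (edgeR adjusted p = 0.0530), and that at day 4 was made in 6 of 19 other settings, DESeq2 among them (adjusted p = 0.0446). Rxrb fell at day 14 (-0.67, SE 0.15, edgeR adjusted p = 0.000896) and at day 4 (-0.64, SE 0.15, edgeR adjusted p = 0.00134). Rxrg did not pass the filter on low counts. Of the 11 tested partners and cofactors, 5 rose and 4 fell at day 14 against naive cells (median 0.16, against 0.04 for all genes, 62.1% called in either direction). At day 4, 4 rose and 4 fell (median 0.0024, against 0.03, 62.2% called). Hdac1, a deacetylase of corepressor complexes, had a log2 fold change of 0.98 at day 14 and 1.18 at day 4, both called.

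Antigen receptor signalling is known to induce the NR4A genes together with other early genes, so 28 of these were followed. Of the 27 tested, 21 rose and 1 fell at day 14 against naive cells (median log2 fold change 2.02, against 0.04 for all genes). At day 4, 23 rose and 1 fell (median 2.33, against 0.03). Of all genes, 33.6% were called higher and 28.5% lower at day 14, and 33.4% higher and 28.8% lower at day 4. Against effector cells 25 rose at day 14 and 24 at day 4, with none lower at either time (25 and 24 at an unadjusted p under 0.05). Of all genes, 32.6% were called higher and 28.4% lower at day 14, and 32.7% higher and 29.2% lower at day 4. Effector cells themselves had 4 higher and 6 lower than naive cells (median -0.14, against 0.01), where 14.6% of all genes were called higher and 10.4% lower.

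Fos, an AP-1 subunit, had 95.1, 57.6 and 48.1 CPM in day 14, 62.9, 68.1 and 48.7 CPM in day 4, 0.359, 0.258 and 0 CPM in effector and 0.517, 1.27 and 1.07 CPM in naive libraries. It rose against naive cells at day 14 (log2 fold change of 6.13 ± 0.39, edgeR adjusted p = 4.49e-08) and day 4 (5.97, SE 0.39, edgeR adjusted p = 5.48e-08). Dusp1, a phosphatase that switches off MAP kinases, had 634, 474 and 411 CPM in day 14, 388, 394 and 337 CPM in day 4, 5.10, 5.42 and 8.66 CPM in effector and 6.65, 5.81 and 10.3 CPM in naive libraries. Its log2 fold change against naive cells was 6.06 at day 14 (SE 0.27, edgeR adjusted p = 7.06e-09) and 5.61 at day 4 (SE 0.27, edgeR adjusted p = 1.12e-08).

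Jun, the AP-1 partner of Fos, also rose in effector cells (log2 fold change of 2.16 ± 0.38, edgeR adjusted p = 0.00195). It had 71.6, 52.1 and 54.3 CPM in day 14, 62.5, 83.4 and 50.0 CPM in day 4, 6.33, 10.6 and 16.8 CPM in effector and 1.63, 2.95 and 2.99 CPM in naive libraries. Egr1, a zinc-finger factor of the same signal, had 389, 266 and 282 CPM in day 14, 169.8, 175 and 169 CPM in day 4, 43.3, 37.8 and 44.5 CPM in effector and 50.4, 76.9 and 103 CPM in naive libraries. Its rise against naive cells was small beside the NR4A genes, with a log2 fold change of 2.02 at day 14 (SE 0.22, edgeR adjusted p = 1.23e-05) and 1.16 at day 4 (SE 0.22, edgeR adjusted p = 0.000767). Egr2, a factor tied to T cell anergy, had 1.86 at day 14 (SE 0.26, edgeR adjusted p = 1.76e-05) and 2.59 at day 4 (SE 0.27, edgeR adjusted p = 5.84e-07). Irf4, a factor of T cell activation, had 3.82 at day 14 and 4.25 at day 4, and rose in effector cells as well (2.72, SE 0.37, edgeR adjusted p = 0.000678).

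Between the tumour time points the early genes did not move one way, with 5 higher and 5 lower at day 14 (median 0.05, against -0.0039 for all genes). Of all genes, 7.17% were called higher and 4.91% lower there. Dusp5, a phosphatase of ERK, rose to 151, 172 and 165 CPM at day 14, against 35.9, 39.9 and 55.7 CPM at day 4 (log2 fold change of 1.89 ± 0.34, edgeR adjusted p = 0.00612). Tnfaip3 (0.71), Klf6 (0.75), Dusp2 (0.88) and Egr1 (0.87) were also higher. Dusp6 (-0.84), Myc (-0.70), Nfkbia (-0.68), Nfkbid (-0.67) and Dusp4 (-0.46) were lower, the same direction as the uncalled value of Nr4a3. Single libraries decided 5 of these calls. Egr1 lost its call without any 1 day 4 library or day 14 replicate 1, Nfkbid without day 14 replicate 1 and Dusp4 without day 4 replicate 1. Dusp2 lost it without day 4 replicates 1 or 2, day 14 replicates 1 or 3, or effector replicate 3, and Myc without day 4 replicates 2 or 3, day 14 replicates 1 or 2, or naive replicate 3. The edgeR adjusted p lay between 0.0511 and 0.136 in these fits.

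**Figure D5:**
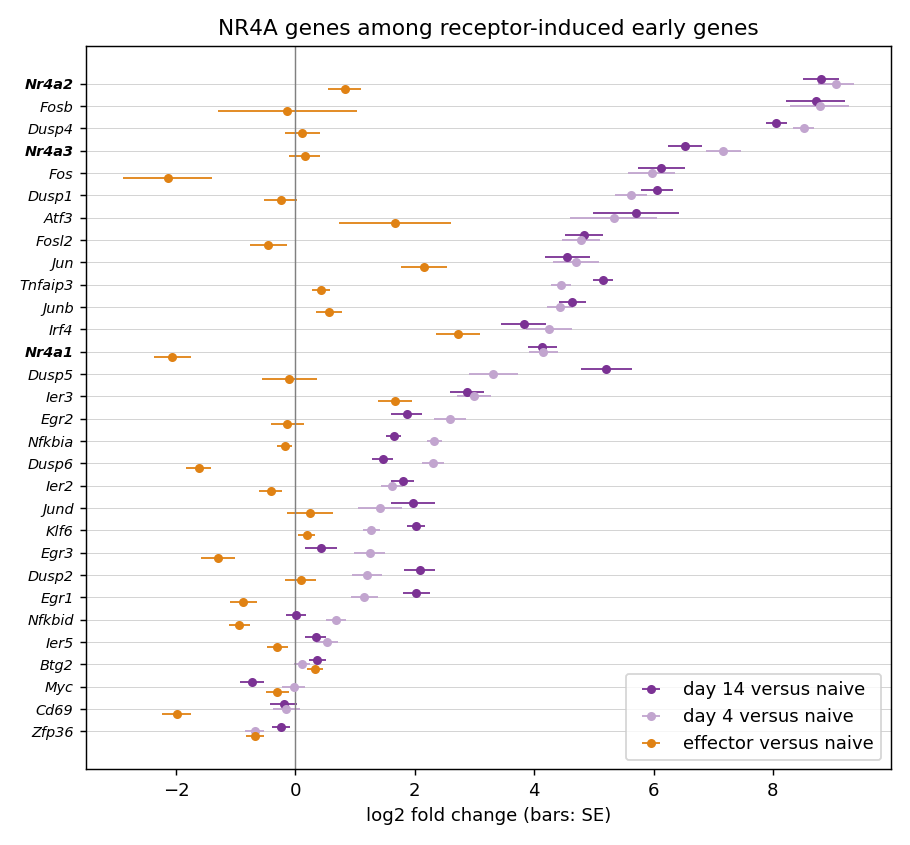
log2 fold changes against naive cells, with SE bars, of the NR4A genes (bold) and the 27 tested early genes of antigen receptor signalling, for day 14, day 4 and effector cells. Nr4a2 lies at 8.81 and 9.06 in tumour cells, and most early genes lie above 0 there while effector values scatter around 0.

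Calcium and cAMP are the signals upstream of NFAT, MEF2 and CREB-family factors. Of 18 calcium, NFAT and MEF2 genes, 8 rose and 7 fell at day 14 against naive cells (median 0.22, against 0.04 for all genes). Of all genes, 33.6% were called higher and 28.5% lower there. At day 4, 5 of the 18 rose and 9 fell (median -0.13, against 0.03), where 33.4% of all genes were called higher and 28.8% lower. These are transcript levels, and the activity of the signals was not tested. Nfatc1, an NFAT factor, rose (log2 fold change of 1.27 ± 0.09 at day 14; 1.03, SE 0.09 at day 4), as did the calcium channel gene Orai1 (1.31, SE 0.16; 1.43, SE 0.17). Stim1, which opens that channel, fell (-1.07, SE 0.09 at day 14; -1.10, SE 0.09 at day 4). Of 18 tested cAMP and CREB genes, 10 rose and 7 fell at day 14 (median 0.52) and 9 rose and 7 fell at day 4 (median 0.45).

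Among cAMP genes with a mean log2 CPM of at least 4, the largest change against naive cells was that of Crem, a CREB-family gene. Action of its products on the NR4A genes was not tested. Crem had 211, 233 and 157 CPM in day 14, 181, 102 and 122 CPM in day 4, 9.71, 9.98 and 9.36 CPM in effector and 6.06, 6.37 and 9.34 CPM in naive libraries. The tumour libraries did not overlap with the others (log2 fold change against naive cells 4.79, SE 0.26, edgeR adjusted p = 1.30e-08 at day 14 and 4.21, SE 0.25, edgeR adjusted p = 3.40e-08 at day 4). Adora2a, the adenosine receptor that raises cAMP, rose at day 14 (2.77, SE 0.17), at day 4 (2.97, SE 0.17) and in effector cells (2.20, SE 0.17). The adenylyl cyclase gene Adcy7 fell at day 4 (-1.84, SE 0.11, edgeR adjusted p = 9.46e-10).

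Knockout studies of NR4A genes in mouse T cells have reported genes that fall and genes that rise when the receptors are absent, and both kinds were looked up here. Of 7 genes reported lower without NR4A, 6 rose and none fell against naive cells at day 14 (7 at an unadjusted p under 0.05; median log2 fold change 6.57, against 0.04 for all genes, of which 33.6% were called higher). At day 4, 6 rose and none fell (6 at an unadjusted p under 0.05; median 4.84, against 0.03 for all genes, of which 33.4% were called higher). DESeq2 gave the same counts at both times. In effector against naive cells the main fit called no NR4A gene higher. Nr4a2 was near the threshold there (log2 fold change of 0.82, edgeR adjusted p = 0.0509) and was called in DESeq2 (adjusted p = 0.0380). In that contrast 4 of the 7 also rose (14.6% of all genes) and 1, Tox, fell, with a median of 1.80 against 0.01 for all genes. The 4 were Ctla4 (log2 fold change of 7.93 ± 0.27, edgeR adjusted p = 4.99e-09), Pdcd1 (1.97), Ikzf2 (1.80) and Foxp3 (1.41). The part of NR4A in these changes was not tested. Pdcd1, which encodes PD-1, had 646, 756 and 688 CPM in day 14, 373, 353 and 409 CPM in day 4, 1.37, 3.70 and 2.94 CPM in effector and 1.11, 0.717 and 0.153 CPM in naive libraries. Its log2 fold change against naive cells was 10.02 at day 14 (SE 0.35, edgeR adjusted p = 9.22e-10) and 9.14 at day 4 (SE 0.35, edgeR adjusted p = 1.73e-09).

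Tox, a regulator of exhaustion, had 662, 774 and 721 CPM in day 14, 310.3, 416 and 380.4 CPM in day 4, 33.0, 44.1 and 44.9 CPM in effector and 112, 113 and 107 CPM in naive libraries. Like Nr4a1 it fell in effector cells (log2 fold change of -1.45 ± 0.12, edgeR adjusted p = 6.48e-07). It was higher at day 14 than at day 4 (0.96, SE 0.12, edgeR adjusted p = 6.02e-05), as was Ctla4, an inhibitory receptor (1.22, SE 0.17, edgeR adjusted p = 0.000629). Ikzf2, which encodes the factor Helios, was lower at day 14 (-1.32, SE 0.28, edgeR adjusted p = 0.0132), a call lost without day 14 replicate 1 (edgeR adjusted p = 0.0575). Havcr2, which encodes TIM-3, had 1092, 1190.2 and 792 CPM in day 14, 106, 118 and 223 CPM in day 4, 2.73, 29.0 and 1.78 CPM in effector and 0.591, 0.796 and 0.383 CPM in naive libraries. Its log2 fold change of day 14 over day 4, 2.78 (SE 0.78, edgeR adjusted p = 0.0551), did not pass. It passed in DESeq2 (adjusted p = 0.0104), when only these 2 groups were fitted (edgeR adjusted p = 0.00681), and without effector replicate 1 (edgeR adjusted p = 0.0460), 2 (0.000544) or 3 (0.0347).

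Of the 5 genes reported higher without NR4A, most were also higher in tumour cells. Against naive cells, where 33.6% of all genes were called higher at day 14 and 33.4% at day 4, 4 rose at day 14 (Ifng, Tnf, Irf4 and Runx3) and none fell (5 at an unadjusted p under 0.05, 4 called by DESeq2). At day 4, 4 rose (Ifng, Irf4, Il2 and Tnf) and 1, Runx3, fell. Ifng, the interferon-gamma gene, had 123, 93.7 and 75.8 CPM in day 14, 46.2, 44.8 and 52.4 CPM in day 4, 0, 0.344 and 0.387 CPM in effector and 0, 0.319 and 0.0765 CPM in naive libraries. Runx3, a CD8 lineage factor, had a log2 fold change of 0.61 at day 14 (SE 0.14, edgeR adjusted p = 0.00157) and -0.56 at day 4 (SE 0.14, edgeR adjusted p = 0.00291).

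Genes of heat shock and cell stress were followed as well. Of 13 tested, 9 rose and none fell at day 14 against naive cells (10 at an unadjusted p under 0.05, 11 called by DESeq2), and 10 rose and 1, Socs3, fell at day 4. Their median log2 fold change was 0.98 at day 14, against 0.04 for all genes (33.6% called higher), and 1.08 at day 4, against 0.03 (33.4% called higher). Hsp90aa1, a chaperone gene, had 853, 864 and 908 CPM in day 14, 1091, 979 and 849 CPM in day 4, 274, 228 and 293 CPM in effector and 224, 248 and 299 CPM in naive libraries. The heat-inducible Hspa1a had 10.9, 8.88 and 10.7 CPM in day 14, 5.65, 4.75 and 2.07 CPM in day 4, 0.144, 0.258 and 0 CPM in effector and 0 CPM in each naive library. Its near-identical copy Hspa1b makes these counts uncertain. The part of these genes in the NR4A result was not tested.

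Marker sums of some other cells were higher in the tumour groups than in naive cells, and some were lower. The summed level of 10 melanoma markers was 440.2 to 1692 CPM in day 14, 715 to 1063 CPM in day 4, 36.9 to 43.2 CPM in effector and 34.9 to 41.2 CPM in naive libraries, and Tyr, Tyrp1, Sox10 and Gpr143 were at 0 in effector cells. Within day 14 that sum was 1692, 711 and 440.2 CPM in replicates 1, 2 and 3. The NR4A sum was 3259, 3437 and 3487 CPM in the same libraries. Within day 4 the melanoma sum was 1063, 990 and 715 CPM in replicates 1, 2 and 3. There the NR4A sum was 4764, 4239 and 4323 CPM. At day 4 replicate 1 was highest in both sums, while replicates 2 and 3 ran in opposite order. At day 14 the NR4A sum ran in the opposite order to the melanoma sum in all replicates. The 14 macrophage and monocyte markers summed to 33.0 to 58.2 CPM in day 14, 25.8 to 84.4 CPM in day 4, 2.86 to 7.9995 CPM in effector and 11.9 to 24.5 CPM in naive libraries. The 10 dendritic cell and MHC class II markers summed to 178 to 224 CPM in day 14, 139.6 to 185 CPM in day 4, 6.47 to 14.9 CPM in effector and 12.9 to 36.4 CPM in naive libraries. Of 5 NK cell markers, Ncr1, Klrb1c, Klra8 and Klra4 stayed at or under 0.717 CPM in every library. The other, Eomes, which CD8 T cells also express, averaged 147.2 CPM in day 14, 147.1 CPM in day 4, 19.5 CPM in cultured effector and 43.2 CPM in naive cells. Neutrophil markers stayed at or under 0.717 CPM in every library. Mean sums in day 14, day 4, effector and naive cells were 56.5, 78.1, 181 and 185 CPM for 8 endothelial markers. In that order, 6 B cell markers had 8.01, 19.1, 12.2 and 21.4 CPM, and 6 erythroid markers had 9.60, 5.84, 2.39 and 18.7 CPM. The 8 fibroblast markers had 568, 391, 791 and 548 CPM, of which Thy1 took 556, 382, 790 and 546 CPM. The part of other cells in the NR4A result was not tested.

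The genes whose pattern was most like each member were found by Pearson correlation of log2 CPM over the 12 libraries, among 6758 other protein-coding genes of sufficient level. This is a description: the 12 points fall into tumour and other libraries, and 520 genes reached r above 0.95 with Nr4a2, 516 with Nr4a3 and 297 with Nr4a1. Nearest to Nr4a2 were Junb (r = 0.997), Tnfrsf4 (0.996), Nr4a3 (0.996), Smarca5 (0.996) and Tpi1 (0.996). Nearest to Nr4a3 were Nr4a2 (0.996), Csrnp1 (0.996), Wsb1 (0.995), Arf4 (0.994) and Hnrnpll (0.994). Nearest to Nr4a1 were Ptma (0.993), Hnrnpab (0.992), Ergic1 (0.991), Rbbp7 (0.990) and Tpm4 (0.990). Each of these 5 was lower in effector than in naive cells by mean CPM, like Nr4a1. They were chosen for likeness to Nr4a1 in these same libraries, so this is no separate result. Nr4a3 was at place 201 (r = 0.958) and Nr4a2 at place 334 (r = 0.946) of the genes most like Nr4a1.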

How the data were processed

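Bulk RNA-seq was analysed from 12 libraries, 3 each of day 14, day 4, effector and naive OT-I cells. The authors deposited raw counts, whole numbers of reads for each gene. RNA was extracted with magnetic beads and mRNA converted into amplified cDNA, per the labels' protocols. The submitters' processing notes name fastp 0.19.6, STAR 2.6.1b and the build GRCm38. How reads were counted, and on which annotation, is not given in the sources used here.

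The unstranded column of each table was used, since 49.8% to 49.9% of stranded gene counts fell on 1 strand. Lines that name no gene were left out; reads outside genes were 20.7% to 30.2% of all reads. Of 55401 identifiers, 55141 matched GENCODE M21, which gave symbols and exon lengths, and 260 did not. RefSeq promoter windows came from a GRCm38 table. No pair of libraries was identical.

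Counts were filtered with filterByExpr (16426 genes kept), scaled by TMM and fitted in 1 quasi-likelihood model of all 12 libraries (edgeR 4.0.16, R 4.3.3, robust, 8 residual degrees of freedom, no replicate block). Genes were called at a Benjamini-Hochberg adjusted p under 0.05 over all genes tested, in 6 contrasts. Ratios within a library used log2 counts with a pseudocount of 0.5 and a two-sided exact permutation test. The scripts were tested on simulated data. DESeq2 1.42.0 and the other alternatives are described at the end.

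The members and gene lists were chosen with earlier results of these data known. Named genes are the 3 members, a panel (Rxra, Pdcd1, Tox, Havcr2, Egr1, Egr2, Fos and Jun), up to 3 called genes per list and contrast with the largest absolute log2 fold change at a mean log2 CPM of at least 4, members that make up a count of 5 or fewer, and for pattern likeness the 5 nearest genes. Ifng, Hspa1a, Cd4 and per-library values of markers were named after their values were seen. The labels describe no molecular identifiers, so counts are not independent molecules.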

Additional observations from a re-analysis of the deposited data

How the results depend on the processing

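Each contrast of a member was recomputed under 19 alternatives: RLE scaling, scaling by total gene counts, no filter, a filter of CPM of at least 1 in 3 libraries, a replicate block, each of the 12 libraries left out, a fit of the compared groups alone, and DESeq2. The 12 contrasts of a member between a tumour group and naive or effector cells, and Nr4a1 between effector and naive cells, kept direction and call in all 19. Leaving out single libraries gave Nr4a1 in effector against naive cells -2.33 to -1.71. Nr4a2 there ranged from 0.32 to 1.04 and was called in DESeq2 (0.80). Nr4a3 there ranged from -0.22 to 0.44, negative without effector replicate 3 (-0.22). Day 14 against day 4, Nr4a1 ranged from -0.13 to 0.10, positive without day 4 replicate 1 (0.05) or day 14 replicate 1 (0.10). Nr4a3 ranged from -0.73 to -0.57 and was called with the replicate block (-0.64, edgeR adjusted p = 0.0107), when only the 2 compared groups were fitted (-0.64, edgeR adjusted p = 0.00173), and without naive replicate 3 (edgeR adjusted p = 0.0443) or effector replicate 3 (edgeR adjusted p = 0.0102). The cause was not tested.

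The labels do not say whether replicate numbers pair the libraries. Deviations from the group mean correlated between -0.0884 and 0.102 in the 18 same-numbered pairs and between -0.0770 and 0.0878 in other pairs. Of 12 libraries, 3 correlated best with their own number. With 3 libraries a group, these values cannot exclude a shared animal or day. The block changed no other member's call. Scaling by total counts moved the median of all genes to -0.10 in effector against naive cells, from 0.01, and the genes called higher there to 1544, against 2395. Genes called in day 14 against day 4 numbered 1178 higher and 806 lower, and 750 to 784 higher without day 4 replicate 1, day 4 replicate 2 or day 14 replicate 2, and 533 lower without day 14 replicate 2. Of 2735 recomputed values for named genes, 2675 kept direction and call, 41 lost a call, 18 gained one and 1 reversed, Egr2 in effector against naive cells (0.050 without naive replicate 3, against -0.14; -0.31 to 0.050 over single libraries left out). With the longest transcript as length, Nr4a1 held 6.46% of the family at day 14, 5.17% at day 4, 13.9% in effector and 46.1% in naive cells. The 4-group tests kept their calls in the 18 alternatives run for them, and the exact ratio tests in the 14 run for them. Of 1824 list counts recomputed, 94 moved by over 1.5 times, by at most 4 genes. Low counts of Nr4a1 in effector cells (18 to 32) limit the precision of that level.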
